A study of Arabidopsis thaliana with 30 samples.

Results

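The mitochondria of Arabidopsis carry a small genome of their own, and the 152 rows of the deposited table whose identifiers start with ATMG stand for its genes and open reading frames. They are 152 of 68575 identifiers. Of the 152, 133 held a count above 0 in at least 1 library and 19 were at 0 in all 30 libraries. The table holds estimated counts in which the decimal mark of non-whole values is missing, so the mark was put back from the values themselves. Its place was clear in every library for 126 of the 152 rows, and 107 of these were above 0. Levels below are in CPM, the counts of a row scaled to a common library total, and shares are percentages of a library's counts.

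The libraries came from whole seedlings of the mutant Δlinda and the wild type Col-0, grown for 14 days with 10 h of light. LINDA is the long noncoding RNA named in the study's title, and the labels do not describe the Δlinda allele or say how many lines it comprises. The 8 groups were Zeocin Δlinda (n = 4), Zeocin Col-0 (n = 3), mock Δlinda (n = 3), mock Col-0 (n = 4), UV-C Δlinda (n = 4), UV-C Col-0 (n = 4), normal light Δlinda (n = 4) and normal light Col-0 (n = 4). Zeocin, a bleomycin-type drug that breaks DNA, was given at 80 µg/ml. UV-C, short-wave light that joins neighbouring pyrimidines in DNA, was given at 2 kJ. Harvest was at 3 h for Zeocin, mock and UV-C, and no time is given for normal light. Nothing says that the libraries of a group came from separate growths, so p-values measure the spread between these samples, which may be technical. One library, mock Col-0 replicate 1, is tagged with the mutant genotype although its title and description call it Col-0, and it was kept as Col-0. Restored totals were 12918120 to 15195343 counts in 29 libraries and 7899483 in normal light Δlinda replicate 1. Leaf genes such as AT1G67090 were high in all libraries (9740 CPM or more), and the seed gene AT5G44120 did not exceed 5 counts. The root gene AT3G09260 ranged from 65.2 to 2690 CPM, and its levels are taken up with the mock libraries below.

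In plant mitochondria the genome encodes subunits of respiratory complexes I, III and IV and of ATP synthase, factors that attach haem to cytochrome c, ribosomal proteins, rRNAs and tRNAs. Most other respiratory subunits, and the polymerases that transcribe the mitochondrial genome, are encoded in the nucleus. Many mitochondrial transcripts are made together, spliced and edited, and a poly(A) tail marks them for decay, so their share of a library depends on how RNA was selected. The sources used here do not say whether poly(A) RNA was selected. A large piece of the mitochondrial genome is also inserted in nuclear chromosome 2 of Col-0, so reads of many mitochondrial genes fit a nuclear copy as well. Roles below come from the reference's notes on chromosome 2 genes that name the mitochondrial identifiers. These notes describe 42 of the 152 identifiers and go beyond "unknown protein" for 24. The others are given by identifier alone and called rows without a role, whatever they encode.

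Mitochondrial rows were a small part of every library, and the part was largest in the UV-C libraries. In UV-C Δlinda they held 0.116%, 0.108%, 0.181% and 0.163% of counts, against 0.0237%, 0.0201%, 0.0609% and 0.0212% in normal light Δlinda. In UV-C Col-0 they held 0.235%, 0.187%, 0.227% and 0.196%, against 0.0286%, 0.0358%, 0.0218% and 0.0287% in normal light Col-0. Every UV-C library lay above every normal light library of its genotype. The ratio of means was 4.52 in Δlinda and 7.35 in Col-0. In each genotype the two-sided exact permutation test gave p = 0.0286, the smallest that 4 against 4 libraries allow, and 0.0714 after Benjamini-Hochberg adjustment over the 10 share comparisons. The threshold of 0.05 was thus not passed. In whole seedlings, more mitochondrial RNA and less of the other RNA in a library cannot be told apart.

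After UV-C the share averaged 0.142% ± 0.0356 in Δlinda and 0.211% ± 0.0233 in Col-0 (SD, n = 4 each), a ratio of 0.672 without overlap (exact permutation p = 0.0286, adjusted 0.0714). With each library in turn left out, Δlinda minus Col-0 was -0.0822 to -0.0579 percentage points. In normal light the genotypes overlapped: 0.0315% ± 0.0197 in Δlinda and 0.0287% ± 0.00572 in Col-0 (SD, n = 4 each; exact permutation p = 0.9714). Normal light Δlinda replicate 3, at 0.0609%, stood apart from the other 3 libraries of its group, and without it the mean of Δlinda was below that of Col-0.

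**Figure D1:**
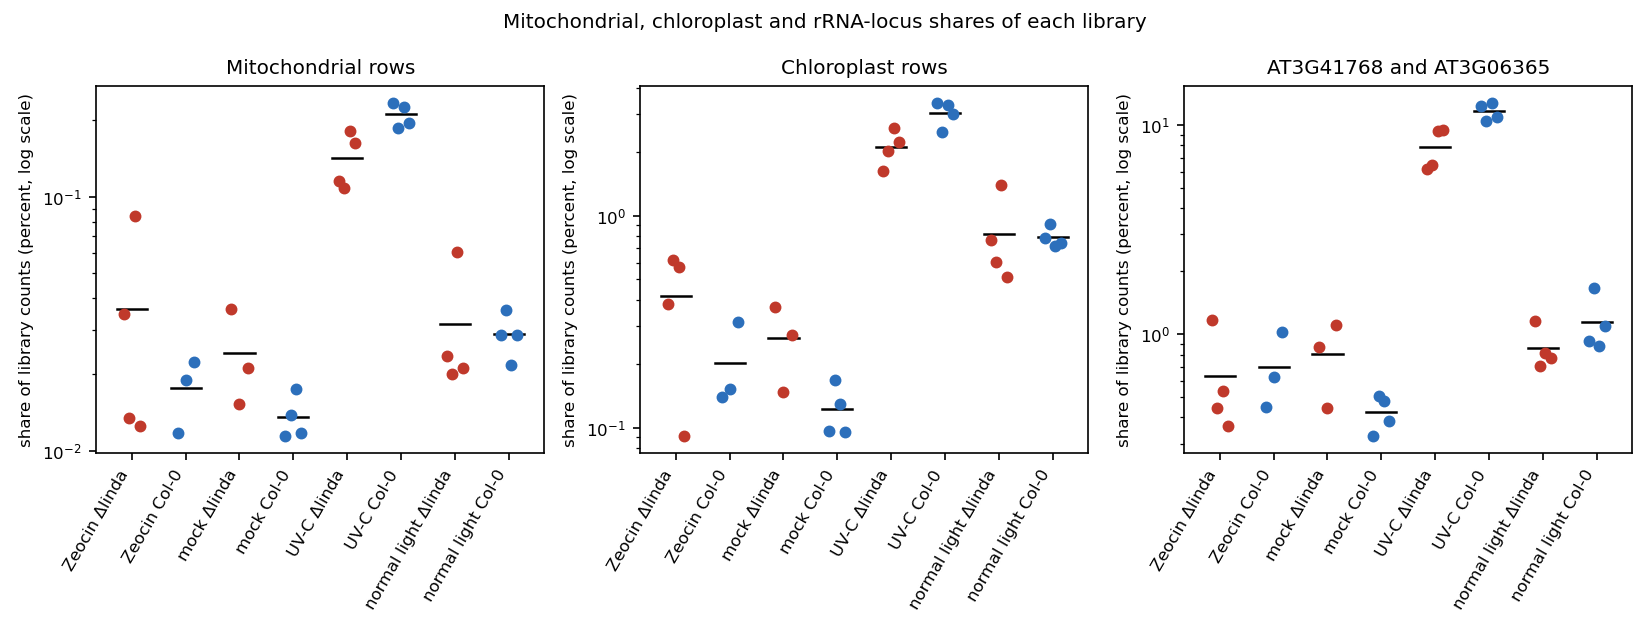
Share of library counts (percent, log axis) held by mitochondrial rows, by chloroplast rows and by AT3G41768 with AT3G06365, in each library of the 8 groups. Red points are Δlinda, blue points are Col-0 and black lines are group means; all 3 shares are highest in the 8 UV-C libraries.

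Mock Col-0 had 0.0114%, 0.0138%, 0.0175% and 0.0118%, all below normal light Col-0 (ratio 0.475, exact permutation p = 0.0286, adjusted 0.0714). Mock Δlinda had 0.0362%, 0.0153% and 0.0211% and overlapped with normal light Δlinda (ratio 0.769, exact permutation p = 0.6857). Zeocin Δlinda had 0.0347%, 0.0135%, 0.0843% and 0.0125%, against the values of mock Δlinda just given (ratio 1.5, exact permutation p = 0.8). Zeocin Col-0 had 0.0118%, 0.019% and 0.0223%, against the values of mock Col-0 (ratio 1.3, exact permutation p = 0.2571). Zeocin and mock overlapped in both genotypes. The ratio in Δlinda rests on replicate 3, without which the Zeocin mean minus the mock mean was -0.00398 percentage points. Between genotypes, Δlinda stood at 1.77 times Col-0 in mock (exact permutation p = 0.0571) and 2.05 times after Zeocin (exact permutation p = 0.5143), with overlap in both.

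Chloroplast rows and an rRNA locus were also highest in the UV-C libraries. Chloroplast rows held 1.62% to 2.58% in UV-C Δlinda and 2.47% to 3.41% in UV-C Col-0, against 0.511% to 1.4% in normal light Δlinda and 0.721% to 0.912% in normal light Col-0. Mock and Zeocin libraries had 0.0909% to 0.62%. The row AT3G41768, annotated as rRNA, with its neighbour AT3G06365, annotated only as a miscellaneous RNA, held 6.16% to 9.44% in UV-C Δlinda and 10.5% to 12.8% in UV-C Col-0. The same pair held 0.703% to 1.16% in normal light Δlinda, 0.875% to 1.66% in normal light Col-0 and 0.325% to 1.17% in mock and Zeocin libraries. Their part in the mitochondrial result was not tested. With both kinds of row left out of the denominator, the mitochondrial ratio of UV-C to normal light was 4.95 in Δlinda and 8.47 in Col-0.

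A pair of rows made up most of the mitochondrial counts. ATMG00020 held 51.4% to 66.7% and ATMG01390 18.6% to 37.8% of the mitochondrial counts of a library, and together they held 81.0% to 91.4%. Neither identifier has a role in the reference's notes. In the functional classes used to choose named rows, both stand in the rRNA class, and the share of protein genes alone leaves them out. ATMG00020 stood at 712, 563, 1064 and 966 CPM in UV-C Δlinda, against 138, 121, 386 and 140 CPM in normal light Δlinda. In UV-C Col-0 it stood at 1432, 1133, 1381 and 1194 CPM, against 158, 239, 131 and 187 CPM in normal light Col-0. All UV-C libraries were above all normal light libraries of the same genotype. ATMG01390 stood at 283, 382, 516 and 421 CPM in UV-C Δlinda and 608, 468, 583 and 480 CPM in UV-C Col-0, and its normal light values are given with those of mock below. The log2 fold of ATMG00020 was 2.11 ± 0.52 in Δlinda (edgeR adjusted p = 0.001) and 2.93 ± 0.54 in Col-0 (edgeR adjusted p = 3.9e-05), and that of ATMG01390 was 2.58 ± 0.46 in Δlinda (edgeR adjusted p = 2.7e-05) and 3.21 ± 0.47 in Col-0 (edgeR adjusted p = 1.8e-06). The next row, ATMG00030, also without a role, reached 37.0 to 63.8 CPM in UV-C Δlinda and 79.5 to 93.3 CPM in UV-C Col-0. Without ATMG00020 and ATMG01390 the mitochondrial share was 0.0194% in UV-C Δlinda against 0.00499% in normal light Δlinda, a ratio of 3.89. In Col-0 it was 0.0293% against 0.00475%, a ratio of 6.17.

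Among the 126 rows with a clear decimal mark, 29 passed the filter on low counts of the test across all genes. The test was edgeR's quasi-likelihood test in 1 fit of all 30 libraries, with Benjamini-Hochberg adjustment over the 20837 genes tested. Since 7 of the 29 passed only through the UV-C libraries, counts are also given for the 22 that passed without them. With UV-C, 36.2% of all genes tested were called higher in Δlinda and 36.3% in Col-0, against which the following counts are read. Of the 29 mitochondrial rows, 24 rose in Δlinda and 27 in Col-0, and none fell. Among the 22, 20 rose in each genotype. The 24 called in Δlinda were all among the 27 called in Col-0. The median log2 fold over the 29 was 2.1 in Δlinda and 2.75 in Col-0, against 0.06 and 0.05 over all genes tested. Over the 22 it was 2.3 in Δlinda and 2.73 in Col-0.

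**Figure D2:**
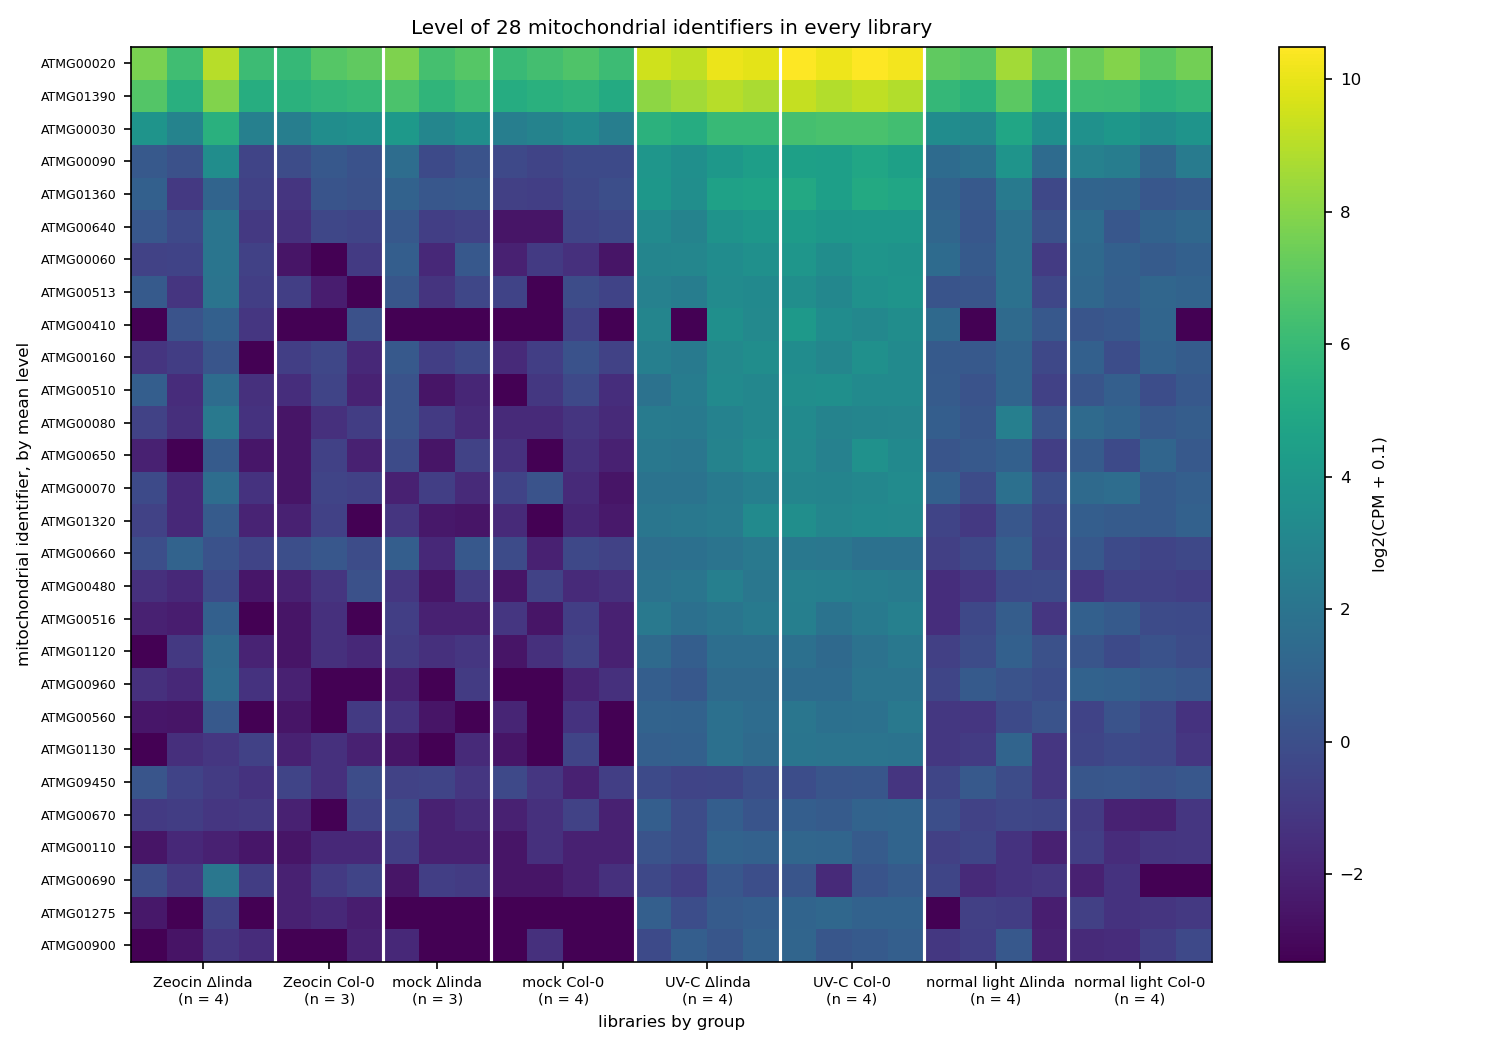
Level, as log2(CPM + 0.1), of the 28 mitochondrial rows with a clear decimal mark and a mean of at least 3 counts (rows, ordered by mean level) in all 30 libraries (columns, white lines between groups). The 8 UV-C libraries are brighter than the rest in nearly every row, and Zeocin Δlinda replicate 3 and normal light Δlinda replicate 3 are brighter than the other libraries of their groups.

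For ATP synthase, the rotary enzyme of the inner membrane that makes ATP, the row with clear counts and the highest fold was ATMG00480, noted as subunit 8 of its membrane part F0. It had 3.63, 4.00, 6.20 and 4.41 CPM in UV-C Δlinda, against 0.253, 0.35, 0.755 and 0.778 CPM in normal light Δlinda. In UV-C Col-0 it had 6.29, 6.01, 5.60 and 5.34 CPM, against 0.358, 0.539, 0.534 and 0.488 CPM in normal light Col-0. No UV-C library came near a normal light one. The log2 fold was 3.10 ± 0.44 (SE; edgeR adjusted p = 3.1e-07) in Δlinda and 3.66 ± 0.44 (edgeR adjusted p = 1.2e-08) in Col-0. ATMG00410, ATPase subunit 6-1, rose by 2.26 ± 0.96 in Δlinda (edgeR adjusted p = 0.041) and 3.44 ± 0.97 in Col-0 (edgeR adjusted p = 0.0033). It was read at 0 in UV-C Δlinda replicate 2, normal light Δlinda replicate 2 and normal light Col-0 replicate 4, and it shares reads with AT2G07741, so its estimates are uncertain.

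For complex I, the entry point of electrons from NADH, ATMG01320, noted as NADH dehydrogenase 2B, had 4.13, 4.56, 5.33 and 9.49 CPM in UV-C Δlinda, against 0.611, 0.384, 1.23 and 0.606 CPM in normal light Δlinda. In UV-C Col-0 it had 11.2, 8.11, 9.46 and 9.09 CPM, against 1.65, 1.45, 1.40 and 1.88 CPM in normal light Col-0. The UV-C and normal light values were apart in both genotypes. Its log2 fold was 3.09 ± 0.47 in Δlinda (edgeR adjusted p = 8.5e-07) and 2.65 ± 0.41 in Col-0 (edgeR adjusted p = 1.2e-06). It shares reads with the nuclear row AT2G07689, so these sizes depend on how reads were divided. AT2G07689 had a log2 fold of 1.46 ± 0.92 in Δlinda (edgeR adjusted p = 0.16) and 4.04 ± 1.25 in Col-0 (edgeR adjusted p = 0.0053). ATMG01275, noted as NADH dehydrogenase 1A, rose by 2.30 ± 0.58 in Δlinda (edgeR adjusted p = 0.0011) and 2.45 ± 0.53 in Col-0 (edgeR adjusted p = 0.00022). Outside UV-C it did not exceed 0.534 CPM. ATMG01275 is among the rows that passed the filter only through the UV-C libraries, so its rise was partly fixed by that selection.

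Of the rows noted for cytochrome c maturation, ATMG00900 and ATMG00960 had lower folds. ATMG00180, noted as cytochrome c biogenesis 452, had no clear decimal mark and was left out of these tests. Its likeliest values were 1.54, 2.21, 2.98 and 4.09 CPM in UV-C Δlinda, against 0.38, 0, 2.10 and 0 CPM in normal light Δlinda. In UV-C Col-0 they were 5.36, 2.07, 4.17 and 2.63 CPM, against 1.01, 0, 0 and 0 CPM in normal light Col-0. ATMG00900, noted as cytochrome c biogenesis 256, rose in Col-0 by 2.06 ± 0.62 (edgeR adjusted p = 0.0041), while in Δlinda its log2 fold was 1.25 ± 0.61 (edgeR adjusted p = 0.07). This row too passed the filter only through the UV-C libraries, so its rise was partly fixed by that selection. ATMG00960, noted as a cytochrome c assembly protein, had 1.68, 1.31, 2.68 and 2.66 CPM in UV-C Δlinda, against 0.633, 1.40, 1.06 and 0.848 CPM in normal light Δlinda. In UV-C Col-0 it had 2.72, 2.72, 3.81 and 3.83 CPM, against 1.93, 1.77, 1.47 and 1.26 CPM in normal light Col-0. It was called in neither genotype (log2 fold 1.11 ± 0.57, edgeR adjusted p = 0.085, in Δlinda; 1.1 ± 0.53, edgeR adjusted p = 0.063, in Col-0).

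Among the rows without a role, ATMG01360 had the largest fold in Col-0. It stood at 15.9, 11.2, 23.4 and 25.4 CPM in UV-C Δlinda, against 2.03, 1.33, 5.13 and 0.707 CPM in normal light Δlinda. In UV-C Col-0 it stood at 32.5, 21.8, 33.6 and 29.0 CPM, against 2.08, 2.00, 1.27 and 1.46 CPM in normal light Col-0. The log2 fold was 3.09 ± 0.42 in Δlinda (edgeR adjusted p = 3.5e-07) and 4.19 ± 0.43 in Col-0 (edgeR adjusted p = 2.5e-09). ATMG00640 rose by 2.60 ± 0.47 in Δlinda (edgeR adjusted p = 2.3e-05) and 3.07 ± 0.46 in Col-0 (edgeR adjusted p = 1.3e-06), and ATMG00160 by 2.53 ± 0.41 and 2.80 ± 0.40 (edgeR adjusted p = 3.4e-06 in Δlinda and 3.5e-07 in Col-0). At the other end, ATMG09450 had 0.768, 0.621, 0.634 and 0.909 CPM in UV-C Δlinda, against 0.633, 1.33, 0.83 and 0.354 CPM in normal light Δlinda. Its groups overlapped in both genotypes, and its log2 fold was -0.06 ± 0.46 in Δlinda (edgeR adjusted p = 0.93) and -0.36 ± 0.43 in Col-0 (edgeR adjusted p = 0.47).

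**Figure D3:**
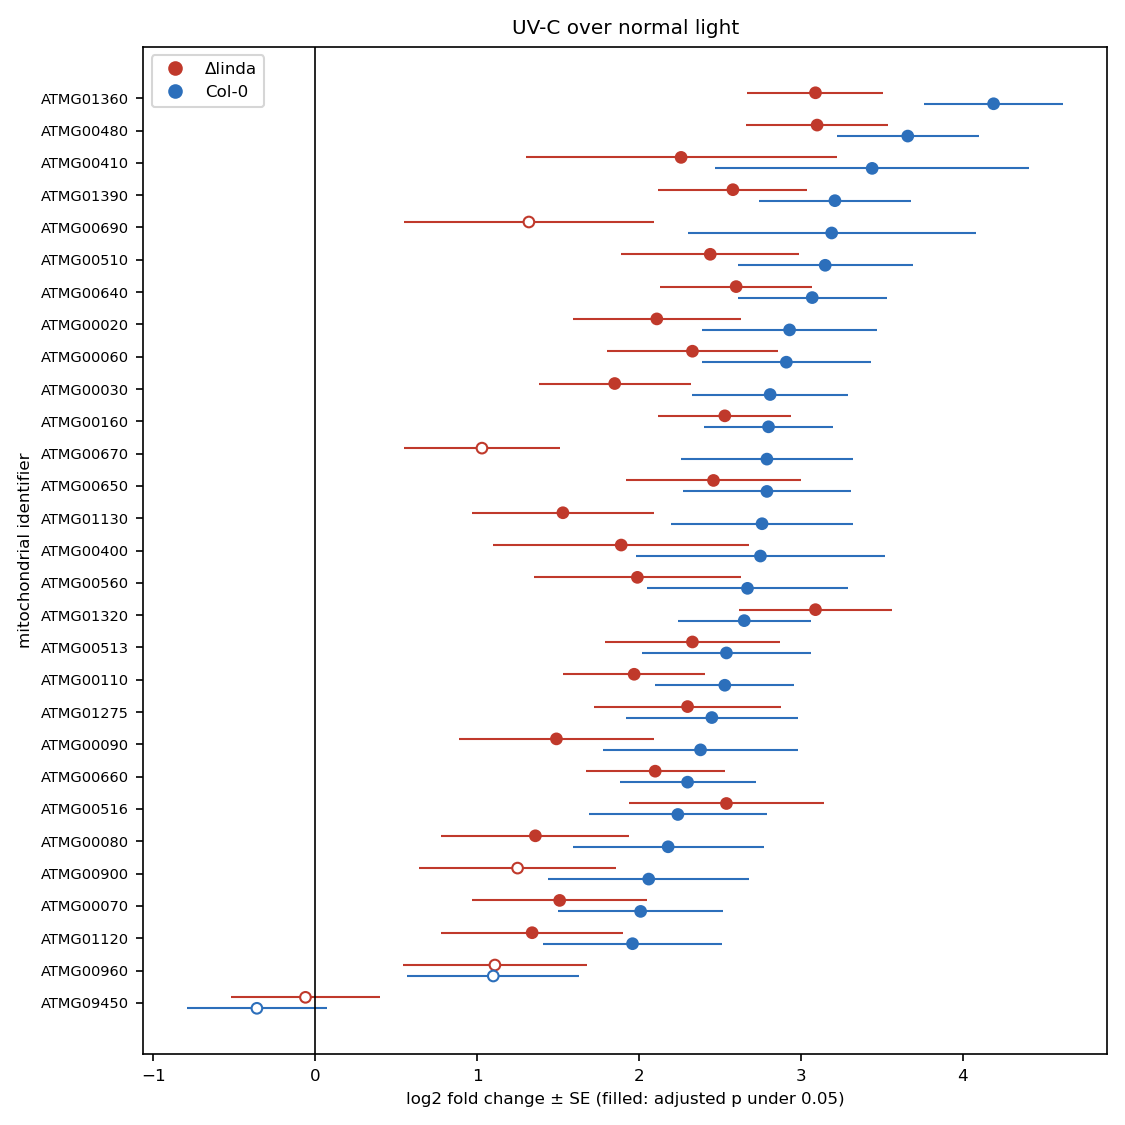
Log2 fold of UV-C over normal light ± SE for the 29 mitochondrial rows tested, in Δlinda (red, above) and Col-0 (blue, below), ordered by the fold in Col-0. Filled points have an edgeR adjusted p under 0.05; ATMG01360 and ATMG00480 lie farthest right in Col-0, and ATMG09450 lies near 0.

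The rows did not all move by the same factor. With each library scaled to its own mitochondrial total, which tests a row against the other mitochondrial rows and so mostly against ATMG00020 and ATMG01390, 3 rows were higher and 6 lower in UV-C Δlinda, and 1 higher and 6 lower in UV-C Col-0. Only mitochondrial rows were rescaled in that fit, and all other genes kept edgeR's usual TMM scaling. There edgeR called 36.1% of all genes higher and 32.5% lower in Δlinda, and 36.2% higher and 33.1% lower in Col-0. These percentages are therefore no background for the rescaled rows. ATMG01360 was higher in both, by a log2 of 0.93 in Δlinda (edgeR adjusted p = 0.00046) and 1.21 in Col-0 (edgeR adjusted p = 1.4e-05). ATMG09450 was lower in both, by -2.43 (edgeR adjusted p = 0.00056) in Δlinda and -3.31 (edgeR adjusted p = 3e-06) in Col-0. ATMG00960, ATMG00080 and ATMG00090 were also lower in both. On this scale ATMG00020 itself had a log2 fold of -0.11 in Δlinda and -0.03 in Col-0.

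The genotypes were then set against each other row by row. After UV-C, all 29 rows had a negative log2 fold of Δlinda over Col-0, between -0.9 and -0.14, with a median of -0.61 against 0.01 over all genes. None was called by edgeR or by DESeq2, 1 had an unadjusted p under 0.05, and edgeR called 0.024% of all genes. In the test of the difference between the UV-C responses, none of the 29 was called by either tool and 1 had an unadjusted p under 0.05. There the median log2 difference, Δlinda minus Col-0, was -0.63, and edgeR called 0.024% of all genes. Without normal light Δlinda replicate 3, 15 of 30 rows tested had a higher and 15 a lower UV-C response in Δlinda, with no call by edgeR, so the direction of this difference rests on that library. UV-C values of ATMG00020, ATMG00030, ATMG00070, ATMG00090 and some other rows did not overlap between the genotypes. How often all genes lacked overlap was not counted. No row passed the threshold between the genotypes after UV-C. ATMG00670, ATMG00690 and ATMG00900, called with UV-C in Col-0 but not in Δlinda, were accordingly not shown to differ between the genotypes. In normal light the median of Δlinda over Col-0 was 0.06, with no call by either tool among 0.154% of genes called by edgeR and 2 rows at an unadjusted p under 0.05. Without normal light Δlinda replicate 3 that median was -0.54, with 26 of 30 rows lower in Δlinda and none called by edgeR.

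Zeocin moved no mitochondrial row past the threshold in edgeR. In Δlinda, where 2.89% of all genes were called, 0 of 29 rows were called by edgeR or DESeq2, and 5 had an unadjusted p under 0.05. In Col-0, where 5.48% of all genes were called, edgeR called 0 of 29, DESeq2 called 1 (ATMG01275; 6.59% of all genes), and 1 had an unadjusted p under 0.05. ATMG01275 was read at 0.137, 0.203 and 0.118 CPM in Zeocin Col-0, against 0 in all 4 mock Col-0 libraries. The median log2 fold was 1.06 in Δlinda and 0.27 in Col-0. Zeocin Δlinda replicate 3 stood apart from its group: ATMG00090 had 1.37, 0.987, 10.9 and 0.619 CPM in Zeocin Δlinda, against 2.97, 0.756 and 1.07 CPM in mock Δlinda. Without it edgeR also called 0, the median in Δlinda was -0.09, and 14 of 30 rows were higher with Zeocin. Between the genotypes after Zeocin, edgeR called 0 of 29, with 10 rows at an unadjusted p under 0.05, and 0.24% of all genes. DESeq2 called ATMG00060, ATMG00513 and ATMG00960, at 1.22% of all genes, all higher in Δlinda. ATMG00513 shares reads with the nuclear row AT2G07711. That pair held 31, 10, 100 and 8 counts in Zeocin Δlinda and 7, 15 and 24 in Zeocin Col-0, with overlap. The call of ATMG00513 thus depends on how reads were divided. Without Zeocin Δlinda replicate 3, 2 of 30 rows were at an unadjusted p under 0.05 in edgeR and none was called. ATMG00060 had 0.549, 0.592, 4.03 and 0.542 CPM in Zeocin Δlinda, against 0.069, 0 and 0.411 CPM in Zeocin Col-0. In mock, edgeR and DESeq2 called none and 1 row had an unadjusted p under 0.05, at 0.024% of genes called. The difference between the Zeocin responses gave no call by either tool and no row at an unadjusted p under 0.05, at 0.0336% of genes called.

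The 2 kinds of control differed. Mock seedlings and normal light seedlings are the controls of different treatments, and treatment medium, handling and harvest time cannot be told apart between them. Tissue markers differed too. The root gene AT3G09260 averaged 2570 CPM in mock Δlinda and 2410 CPM in mock Col-0. In normal light it averaged 142 CPM in Δlinda and 92.8 CPM in Col-0. The root genes AT1G62500 and AT3G54220 were also higher in mock in both genotypes. The leaf genes AT1G67090, AT1G29920 and AT2G39730 were lower in mock in both. Their part in the mitochondrial result was not tested. In mock against normal light, edgeR called 20.5% of all genes lower in Δlinda and 23.7% in Col-0. Of the 29 mitochondrial rows, 14 fell in Δlinda and 23 in Col-0, with 12 in both, and none rose. Among the 22 rows that pass the filter without UV-C libraries, 10 fell in Δlinda and 19 in Col-0, with median log2 folds of -1.78 and -2.58. The median log2 fold over the 29 was -1.79 in Δlinda and -2.3 in Col-0, against 0.07 and 0.09 over all genes. In Δlinda the count dropped to 3 without normal light Δlinda replicate 3, and to 7 without mock Δlinda replicate 2 or replicate 3. The counts also depend on the scaling: edgeR's TMM factors were 1.12 to 1.19 in mock Δlinda and 1.13 to 1.17 in mock Col-0, against 0.79 to 0.91 in normal light Δlinda and 0.81 to 0.86 in normal light Col-0. With library totals alone, the median log2 fold over all genes was 0.49 in Δlinda and 0.55 in Col-0, and 11 and 20 mitochondrial rows fell, with medians of -1.35 and -1.84. On that scale edgeR called 52.8% of all genes higher and 10.3% lower in Δlinda, and 58.3% higher and 11.3% lower in Col-0, while with TMM it called 26.8% higher in Δlinda and 31.9% in Col-0.

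Rows of complex I and of cytochrome c maturation were among those that fell furthest. ATMG01320 had 0.339, 0.088 and 0.071 CPM in mock Δlinda and 0.216, 0, 0.171 and 0.09 CPM in mock Col-0, against the normal light values given above. Its log2 fold was -2.48 ± 0.78 in Δlinda (edgeR adjusted p = 0.0097) and -4.28 ± 0.67 in Col-0 (edgeR adjusted p = 3e-06). With its nuclear copy AT2G07689 added, the pair held 3, 2, 5 and 3 counts in mock Col-0, against 23, 22, 21 and 27 in normal light Col-0. The size of the fold of ATMG01320 alone thus depends on how reads were divided. ATMG01275 was at 0 in all 7 mock libraries, so its fold is a bound. Against a floor of 3 counts over the group, it was at least 3.95-fold lower in mock Δlinda (edgeR adjusted p = 0.0027) and at least 7.31-fold lower in mock Col-0 (edgeR adjusted p = 0.00019). ATMG00960 had 0.141, 0 and 0.426 CPM in mock Δlinda and 0, 0, 0.158 and 0.279 CPM in mock Col-0. It fell by 2.79 on the log2 scale in Δlinda (SE 0.85; edgeR adjusted p = 0.0072) and by 4.29 in Col-0 (SE 0.79; edgeR adjusted p = 3.4e-05). ATMG00900 fell by 3.33 in Δlinda and 2.84 in Col-0 (edgeR adjusted p = 0.0068 in Δlinda and 0.011 in Col-0). These mock levels rest on a handful of counts per library. ATMG00060 and ATMG00650, without a role, fell in Col-0 by 3.49 and 3.45 (edgeR adjusted p = 0.00046 for each), and in Δlinda had log2 folds of -1.38 and -1.77 (edgeR adjusted p = 0.1 for ATMG00060 and 0.055 for ATMG00650). ATMG00070 fell by 2.99 in Δlinda (edgeR adjusted p = 0.0034) and 2.66 in Col-0 (edgeR adjusted p = 0.0011), and ATMG01130 by 3.49 in Δlinda (edgeR adjusted p = 0.0025) and 2.22 in Col-0 (edgeR adjusted p = 0.017).

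The most abundant rows had smaller folds. ATMG01390 had 94.6, 51.4 and 72.5 CPM in mock Δlinda, against 58.6, 45.4, 130 and 41.4 CPM in normal light Δlinda. In mock Col-0 it had 36.7, 43.1, 49.8 and 34.9 CPM, against 73.7, 69.4, 47.4 and 53.5 CPM in normal light Col-0. The groups overlapped in both genotypes, and the log2 fold was -0.39 ± 0.48 in Δlinda (edgeR adjusted p = 0.53) and -1.06 ± 0.45 in Col-0 (edgeR adjusted p = 0.049). With library totals alone it was 0.07 ± 0.45 in Δlinda (edgeR adjusted p = 0.91) and -0.60 ± 0.42 in Col-0 (edgeR adjusted p = 0.21), so the sign in Δlinda and the call in Col-0 depend on TMM. Its part of the mitochondrial counts was 26.2% to 34.4% in mock Δlinda and 28.4% to 32.1% in mock Col-0, against 19.5% to 24.8% in normal light Δlinda and 18.6% to 25.7% in normal light Col-0. Scaled to the mitochondrial total, ATMG01390 was higher in mock in both genotypes (log2 fold 0.51 in Δlinda, edgeR adjusted p = 0.0025; 0.50 in Col-0, edgeR adjusted p = 0.0012). On that scale 12 rows in Δlinda and 10 in Col-0 were lower and ATMG01390 alone was higher. No share over all genes exists on that scale, since only mitochondrial rows were rescaled.

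**Figure D4:**
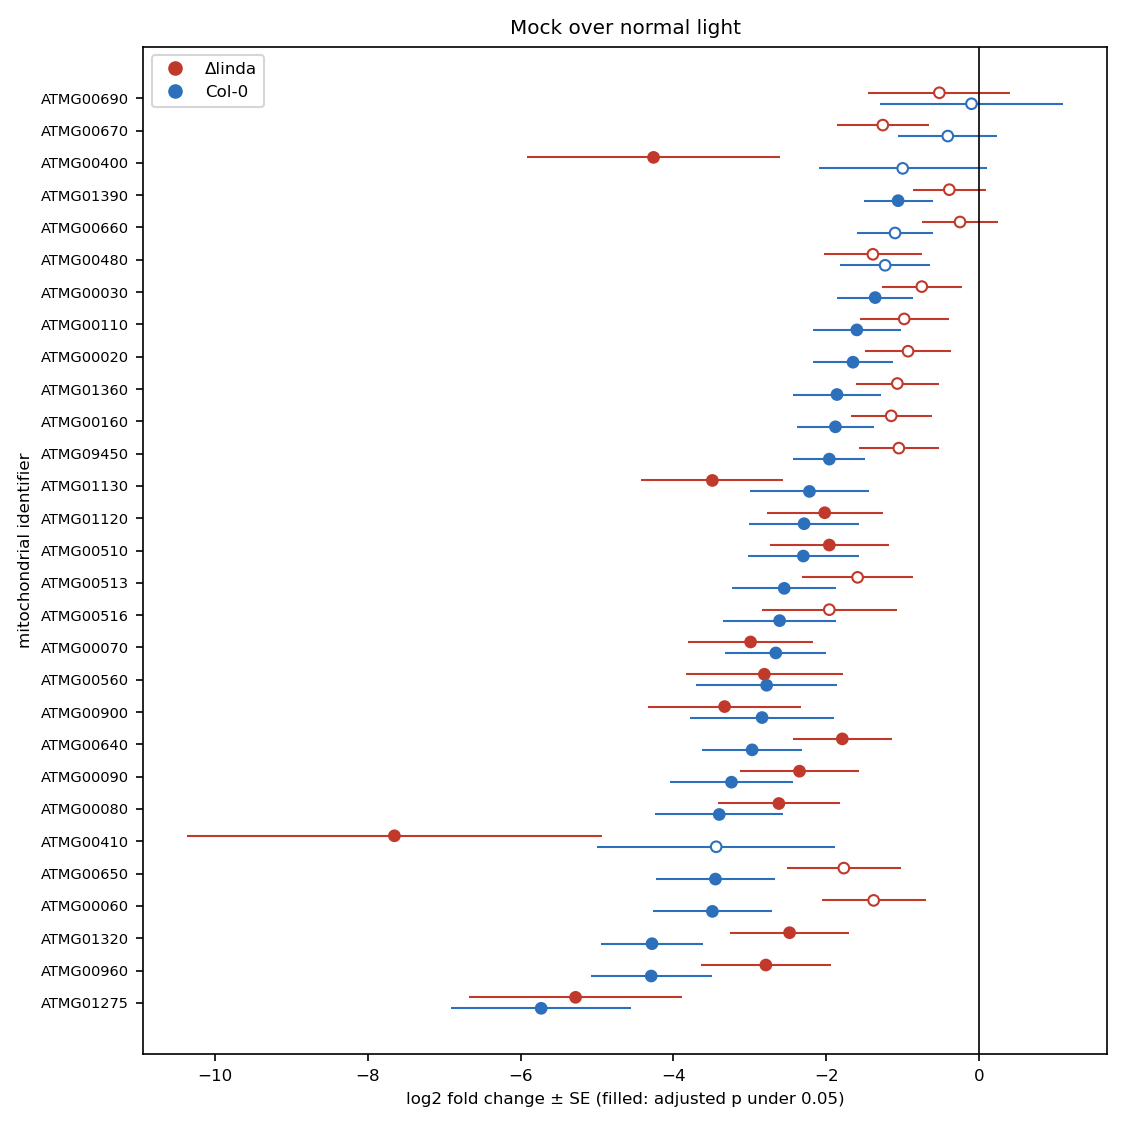
Log2 fold of mock over normal light ± SE for the 29 mitochondrial rows tested, in Δlinda (red, above) and Col-0 (blue, below), ordered by the fold in Col-0. Filled points have an edgeR adjusted p under 0.05; every point lies left of 0, while with library totals alone 2 of 29 rows in each genotype had a fold above 0. The positions of ATMG01275 in both genotypes and of ATMG00400 and ATMG00410 in Δlinda depend on the prior count, since their mock libraries are all at 0.

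Counts of many mitochondrial rows depended on how reads were divided with nuclear copies. The reference notes or complementary decimals in the table link 51 of the 152 rows to 53 nuclear rows of chromosome 2. Decimals were called complementary where the 2 estimates added up to a whole number in a library. This occurred in 212 of 273 cases in which both were non-whole, over the pairs linked by their decimals. Those pairs were picked for such sums, so this rate is no test of the link. Among 23 pairs with at least 500 counts over all libraries, the nuclear row held the larger part of the counts in 17 and over 90% in 7. ATMG00220, noted as apocytochrome b, the core protein of complex III, was at 0 in 28 libraries, and its copy AT2G07727 held 99.7% of the pair's counts. The sum of the pair had a mean of 35.5 ± 10.2 CPM in UV-C Δlinda and 47.9 ± 3.07 CPM in UV-C Col-0, against 7.42 ± 5.36 CPM in normal light Δlinda and 6.53 ± 1.81 CPM in normal light Col-0 (SD, n = 4 each). The pair's log2 fold was 2.27 in Δlinda (edgeR adjusted p = 0.00089) and 2.96 in Col-0 (edgeR adjusted p = 5.6e-05). For ATMG01080, noted as subunit 9 of the F0 ATPase, 99.6% of the pair's counts were in AT2G07671. That pair rose by 2.27 in Δlinda (edgeR adjusted p = 1.3e-07) and 2.83 in Col-0 (edgeR adjusted p = 1.8e-09).

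The pair of ATMG00510 and AT2G07709 gave a different answer as a sum than as single rows. ATMG00510 had 3.54, 5.41, 9.69 and 8.36 CPM in UV-C Δlinda, against 1.48, 1.05, 2.12 and 0.541 CPM in normal light Δlinda. Alone it rose by 2.44 ± 0.55 in Δlinda (edgeR adjusted p = 3e-04) and 3.15 ± 0.54 in Col-0 (edgeR adjusted p = 8.8e-06). AT2G07709, annotated as a transcribed pseudogene, held 89.1% of the pair's counts. It had 28, 24.3, 38.5 and 41.6 CPM in UV-C Δlinda, against 26.9, 41.2, 56.9 and 28.5 CPM in normal light Δlinda, and 41.2, 31.8, 43.4 and 37.8 CPM in UV-C Col-0, against 42.5, 44.8, 40.0 and 34.4 CPM in normal light Col-0. UV-C and normal light overlapped for this row. The sum of the pair had a log2 fold of 0.05 in Δlinda (edgeR adjusted p = 0.94) and 0.32 in Col-0 (edgeR adjusted p = 0.62). In mock, by contrast, the pair was lower than in normal light, by a log2 of -2.12 in Δlinda (edgeR adjusted p = 0.009) and -3.61 in Col-0 (edgeR adjusted p = 3.8e-05).

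Other pairs rose as sums, and their nuclear rows rose alone as well. ATMG00730, noted as cytochrome c oxidase subunit 3, and AT2G07687 rose as a sum by 2.67 in Δlinda (edgeR adjusted p = 8.5e-06) and 3.41 in Col-0 (edgeR adjusted p = 2.4e-07). ATMG00513 with AT2G07711 rose by 2.27 in Δlinda (edgeR adjusted p = 0.00022) and 2.66 in Col-0 (edgeR adjusted p = 2.7e-05). ATMG00560, noted as an OB-fold nucleic acid-binding protein, with AT2G07715 rose by 1.08 in Δlinda (edgeR adjusted p = 0.0015) and 1.91 in Col-0 (edgeR adjusted p = 7.8e-07). Adding copies to their rows gave 37 testable rows or pairs, of which 30 rose with UV-C in Δlinda and 34 in Col-0, and none fell, where 36.2% and 36.3% of all genes were called higher. The filter for this count included the UV-C libraries and was not repeated without them. Rows or pairs that are high only after UV-C could thus enter the count.

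**Figure D5:**
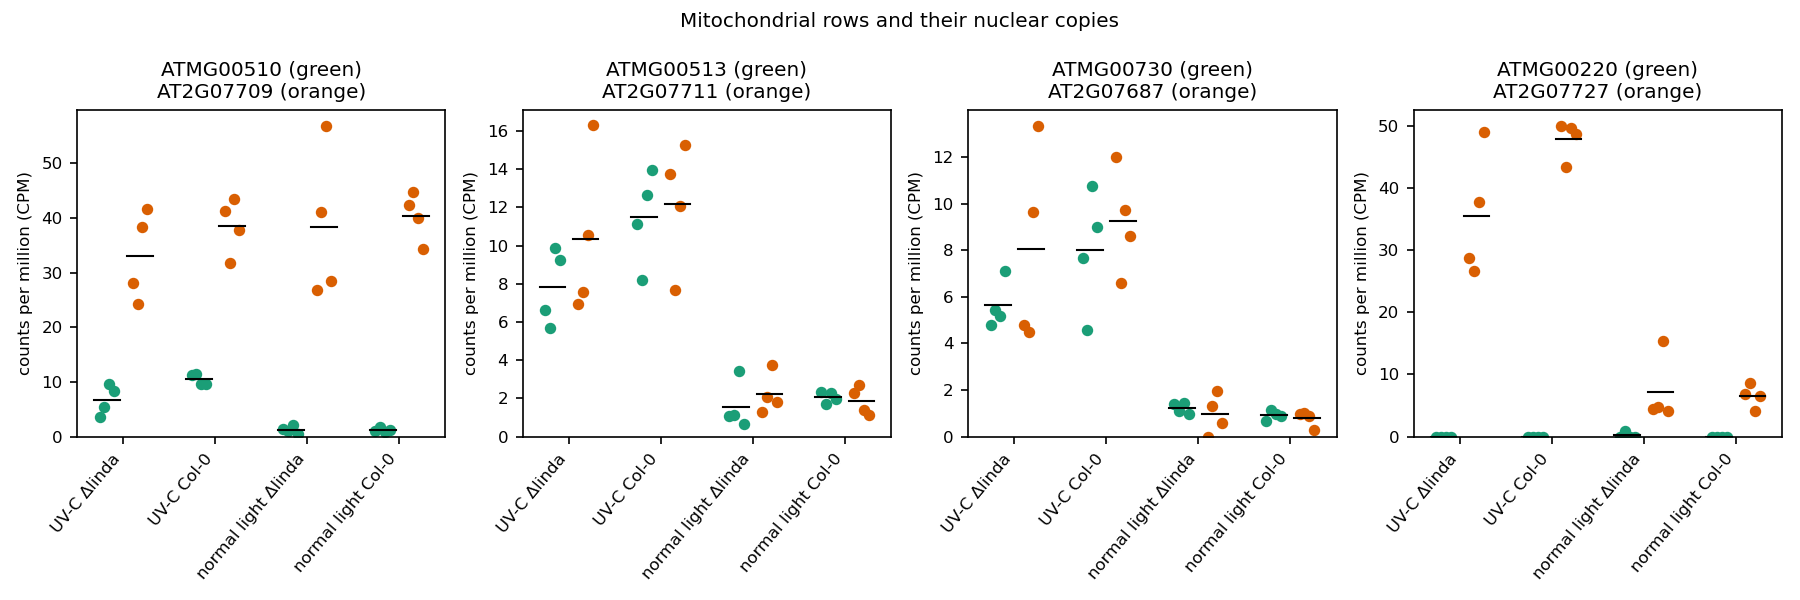
CPM of 4 mitochondrial rows (green) and their nuclear copies on chromosome 2 (orange) in UV-C and normal light libraries; points are libraries and lines are group means. AT2G07709 is as high in normal light as after UV-C, ATMG00220 is at or near 0 in every group shown, and the other rows are higher after UV-C.

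The 26 rows without a clear decimal mark were left out of these counts. Read at their best placement, they bring the rows tested to 48, of which 35 rose with UV-C in Δlinda and 37 in Col-0, at 36.2% and 36.3% of all genes called higher. Here too the filter included the UV-C libraries and was not repeated without them, so rows high only after UV-C could enter. Values of these rows are uncertain. ATMG01190, noted as ATP synthase subunit 1, would be at 16.7 to 32.6 CPM in UV-C Δlinda and 27.5 to 38.7 CPM in UV-C Col-0, against 3.14 to 11.9 CPM in normal light Δlinda and 3.44 to 5.70 CPM in normal light Col-0. ATMG00980, noted as a ribosomal protein of the S12/S23 family, would be at 12.5 to 24.3 CPM in UV-C Δlinda and 21.9 to 26.5 CPM in UV-C Col-0, against 13.4 to 24.7 CPM in normal light Δlinda and 23.6 to 36.3 CPM in normal light Col-0. Its groups overlapped, with a log2 fold of -0.20 in Δlinda (edgeR adjusted p = 0.82) and -0.21 in Col-0 (edgeR adjusted p = 0.81). ATMG00580, without a role, had a log2 fold of 2.06 in Δlinda (edgeR adjusted p = 0.021) and 2.54 in Col-0 (edgeR adjusted p = 0.005).

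Nuclear genes of the same organelle were read beside the mitochondrial rows from 3 lists, of 29 respiratory chain subunits, 13 polymerases and RNA-processing or decay factors and 11 alternative oxidases and alternative NADH dehydrogenases. With UV-C, edgeR called 36.2% of all genes higher and 32.5% lower in Δlinda, and 36.3% higher and 33.1% lower in Col-0. Of the 29 respiratory subunits tested, 17 rose in Δlinda and 16 in Col-0, and none fell. Their median log2 fold was 0.29 in Δlinda and 0.34 in Col-0, against medians of 2.3 and 2.73 over the 22 mitochondrial rows that passed the filter without UV-C libraries. CYTC-2, a cytochrome c that carries electrons between complexes III and IV, averaged 88.7 ± 19.8 CPM in UV-C Δlinda and 93.8 ± 3.82 CPM in UV-C Col-0, against 16.1 ± 3.43 CPM in normal light Δlinda and 11.8 ± 1.37 CPM in normal light Col-0 (SD, n = 4 each). Its log2 fold was 2.54 ± 0.18 in Δlinda (edgeR adjusted p = 1.6e-13) and 3.07 ± 0.18 in Col-0 (edgeR adjusted p = 3.3e-15).

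Of 12 tested polymerases and RNA factors, 8 rose and 2 fell in UV-C Δlinda, and 9 rose and 1 fell in UV-C Col-0. Over all genes, 36.2% were called higher and 32.5% lower in Δlinda, and 36.3% higher and 33.1% lower in Col-0. PMH1, a mitochondrial RNA helicase, rose by 2.60 ± 0.20 in Δlinda (edgeR adjusted p = 9.1e-13) and 3.27 ± 0.20 in Col-0 (edgeR adjusted p = 1e-14). AT1G68990, of the DNA/RNA polymerase superfamily, rose by 1.39 ± 0.18 in Δlinda (edgeR adjusted p = 8.7e-08) and 2.00 ± 0.19 in Col-0 (edgeR adjusted p = 9.1e-11). In mock against normal light, where mitochondrial rows were lower, 5 of these 12 rose in Δlinda and 6 in Col-0 and none fell, at 26.8% and 31.9% of all genes called higher. With library totals alone, 10 rose in Δlinda and 11 in Col-0, at 52.8% and 58.3% of all genes called higher.

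The alternative pathway, which passes electrons to oxygen without pumping protons at complexes III and IV, had 7 genes tested. Of these, 6 rose in UV-C Δlinda and 7 in UV-C Col-0, at 36.2% and 36.3% of all genes called higher. AOX1A, the main stress-induced alternative oxidase, averaged 680 ± 113 CPM in UV-C Δlinda and 670 ± 35.3 CPM in UV-C Col-0, against 52.7 ± 7.16 CPM in normal light Δlinda and 64.7 ± 5.57 CPM in normal light Col-0 (SD, n = 4 each). NDB2, an alternative NADH dehydrogenase, rose by 5.45 ± 0.24 in Δlinda (edgeR adjusted p = 1.1e-17) and 5.80 ± 0.25 in Col-0 (edgeR adjusted p = 4e-18). AOX1B was at 0 in all normal light libraries and, against a floor of 3 counts over the group, at least 28.3-fold higher in UV-C Δlinda and at least 34.6-fold higher in UV-C Col-0. With Zeocin, NDA2, another alternative NADH dehydrogenase, rose in Col-0 by 0.85 ± 0.21 (edgeR adjusted p = 0.0095). SDH2-1, an iron-sulphur subunit of complex II, rose there by 0.56 ± 0.16 (edgeR adjusted p = 0.024), and no gene of the 3 lists was called in Δlinda. No gene of the lists was called between the genotypes in any condition.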

How the data were processed

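The authors deposited 1 table of estimated counts for 68575 identifiers in 30 libraries. Per the submitters' processing notes, Trimmomatic 0.38.0, FastQC 0.72 and Salmon 0.14.1.2 were used. The genome build and strand setting are not given in the sources used here, so no coordinates or sequences are printed. Roles and symbols come from RefSeq's TAIR10.1 annotation.

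Non-whole values had lost their decimal mark. Of 723692 values above 0, 15.21% were given 1 to 3 decimals, from a gene's other libraries and its group. For mitochondrial rows and their nuclear copies, expected levels followed a library factor from 10 mitochondrial rows. It was 2.832 to 3.649 in UV-C Col-0, 0.541 to 0.856 in normal light Col-0 and 0.097 to 0.162 in mock Col-0. Placement there thus leaned toward the contrasts tested, and 526 of 1625 mitochondrial values above 0 had decimals. The effect of this lean was not tested. A row was clear where each value's placement had a posterior of at least 0.95 or alternatives within 3 counts; unclear rows were left out of the tests and shares. In simulated data 2 of 1289 mitochondrial values and 23 of 131825 nuclear values were misplaced. Those data had the main spread that the placement assumes and no reads shared with nuclear copies. They do not measure the error in rows that share reads or vary more. The simulation and the placement without groups, listed below, kept the mitochondrial library factor, so neither checks that lean. Shares are restored mitochondrial counts over the library total.

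Estimates were rounded, filtered with edgeR's filterByExpr by group and fitted with edgeR 4.0.16 (TMM, quasi-likelihood, limma 3.58.1, R 4.3.3) in 1 model of 8 groups without a replicate block. Calls have an adjusted p under 0.05. In simulated counts of 20837 genes (UV-C against normal light in Col-0), 32 of 50 genes raised 2-fold, 50 of 50 raised 4-fold, 29 of 50 lowered to 0.5 times and 45 of 50 lowered to 0.25 times were recovered, with 7 false calls. All genes had the same spread there, so these rates do not describe rows that vary more. Shares were compared with two-sided exact permutation tests (scipy 1.17.1). The alternatives tried were DESeq2 1.42.0, scaling by nuclear genes, by the mitochondrial total or by library totals without TMM, no filter, a replicate block, decimal placement without groups, other shares, and each library left out. The pairing required a correlation of deviations over 0.1 in every pair of same-numbered libraries. This was met only between Δlinda and Col-0 in mock (0.11 to 0.22); it was 0.07 to 0.19 for UV-C against normal light in Col-0.

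Named rows are, per treatment comparison, the 8 called rows with the largest fold, per functional class the 2 most abundant, up to 10 called rows of each genotype, interaction or mock comparison, rows discussed for nuclear copies and, per nuclear list, the 4 called genes with the largest fold. Rows named outside this rule were chosen after their values were seen. Members and lists were chosen with earlier results of these data known.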

Additional observations from a re-analysis of the deposited data

Results flagged for a closer look

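Of 143 sets of 4 library values examined, 17 had a library farther from the rest than Dixon's 95% critical value allows, and chance flags about 1 set in 20. Of the 17, 8 were in Zeocin Δlinda replicate 3, 5 in normal light Δlinda replicate 3, 3 in mock Col-0 replicate 3 and 1 in mock Col-0 replicate 2.

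In Zeocin Δlinda replicate 3, ATMG00060 was at 4.03 CPM, with the other 3 libraries at 0.542 to 0.592 CPM. ATMG00080 was at 4.68 CPM (others 0.263 to 0.549), ATMG00090 at 10.9 CPM (others 0.619 to 1.37) and ATMG00516 at 1.8 CPM (others 0 to 0.143). ATMG00650 was at 1.44 CPM (others 0 to 0.137), ATMG00690 at 4.39 CPM (others 0.395 to 0.824), ATMG00960 at 2.81 CPM (others 0.197 to 0.31) and ATMG01275 at 0.534 CPM (others 0 to 0.0864).

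In normal light Δlinda replicate 3 the mitochondrial share was 0.0609%, with the others at 0.0201% to 0.0237%. There ATMG00020 was at 386 CPM (others 121 to 140), ATMG00080 at 6.12 CPM (others 1.06 to 1.65), ATMG00090 at 14.2 CPM (others 2.69 to 3.29) and ATMG01130 at 2.11 CPM (others 0.354 to 0.42).

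In mock Col-0 replicate 3, ATMG00080 was at 0.344 CPM (others 0.208 to 0.216), ATMG00410 at 0.531 CPM (others 0) and ATMG01130 at 0.62 CPM (others 0 to 0.0721). In mock Col-0 replicate 2, ATMG00900 was at 0.277 CPM (others 0).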

How the results depend on the processing

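Of 348 recomputed counts and share differences, 335 were kept by a loose rule. It asked for a count of similar size or a share difference of the same sign, and the size of a share difference was not checked. DESeq2 called 1 row for Zeocin against mock in Col-0 and 3 for Δlinda against Col-0 after Zeocin, where edgeR called 0. Scaled to the mitochondrial total, which asks a different question by construction, 9 rows were called with UV-C in Δlinda, 7 in Col-0 and 11 in mock against normal light in Col-0, and ATMG00020 with UV-C in Col-0 had a log2 fold of -0.03. With protein genes alone, the share of Δlinda minus that of Col-0 in normal light was -4.88e-05 percentage points; the cause was not tested.

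With each library left out in turn, the rows called numbered 17 to 25 with UV-C in Δlinda and 27 to 28 in Col-0, 3 to 19 for mock against normal light in Δlinda and 20 to 23 in Col-0, and 0 to 1 for Δlinda against Col-0 after Zeocin (ATMG00960, without Zeocin Col-0 replicate 1). The other 7 counts stayed at 0. Share differences ranged from -0.00398 to 0.02 percentage points for Zeocin minus mock in Δlinda (lowest without Zeocin Δlinda replicate 3) and 0.00175 to 0.00705 in Col-0. They ranged from 0.0977 to 0.122 for UV-C minus normal light in Δlinda and 0.175 to 0.191 in Col-0. For Δlinda minus Col-0 they were 0.00457 to 0.015 in mock, 0.00251 to 0.0265 after Zeocin, -0.00709 to 0.00652 in normal light and -0.0822 to -0.0579 after UV-C. For mock minus normal light they were -0.0132 to 0.00256 in Δlinda and -0.0174 to -0.0127 in Col-0. The lowest value of Δlinda minus Col-0 in normal light and the highest of mock minus normal light in Δlinda came without normal light Δlinda replicate 3.

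With a replicate block, 24 and 27 rows were called with UV-C (Δlinda and Col-0), 16 and 23 for mock against normal light, and 0 elsewhere. Of 586 recomputed values for 36 results on named rows, 555 kept direction and call, 30 lost the call and 1 reversed. Library totals without TMM, keeping unclear rows, adding nuclear copies, and leaving out ATMG00020 and ATMG01390 were chosen after seeing the data. Depth limits the mock and Zeocin groups most, where many rows had 0 to a few counts.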
